A study of Mus musculus with 6 samples.

Results

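Classical monocytes are the blood-derived cells that replenish tissue macrophages, and in mouse tissue they are usually recognised by Ly6c2, Ccr2, Plac8 and Vcan transcripts. Cells with this pattern were taken from single-cell RNA-seq of pancreatic tumours by a rule on raw UMIs (unique molecular identifiers, 1 per captured transcript). A cell was taken with at least 4 UMIs of Ly6c2, Plac8, Chil3 and Vcan together and at least 2 of Csf1r, Ccr2, Fcgr1 and Ms4a6c together. Its C1qa, C1qb and C1qc UMIs had to stay under 0.3% of its total, and Arg1 and Saa3 each under 5 UMIs. It could hold at most 1 UMI of Cd3d, Cd3e, Cd3g and Trac together, and none of Ncr1, Siglech, Cd79a or Cxcr2. The rule found 1044 of 47794 barcodes (2.18%), called the gated cells here. They were chosen by their measured UMIs of these genes, so the levels of these genes in them are a description and not a result. All 6 mice were wild-type C57BL/6J animals with orthotopic tumours of the pancreas, grown from the murine pancreatic cancer line KPC and collected on day 11 after inoculation. In one group, 3 mice received #44-anti-mVSIG4, an antibody against the macrophage complement receptor VSIG4; in the other, 3 mice received IgG. Each mouse gave 1 library, the labels name no dose or schedule, and all tumours came from 1 transplanted cell line.

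In tissue, classical monocytes leave the blood through the chemokine receptor CCR2, sense microbial and damage signals through CD14 and Toll-like receptors, and make interleukin-1 and chemokines. Within days they can turn into macrophages, which gain complement C1q and apolipoprotein E, or into cells that present antigen on MHC class II. Ly6c2 and Plac8 are lost on the way, although Plac8 is also made by other leukocytes and by epithelial tumour cells. The gated cells numbered 165, 111 and 219 in anti-VSIG4 1, 2 and 3, and 272, 130 and 147 in IgG 1, 2 and 3. They held 7580113 UMIs in all, with a median of 4567, 4229 and 6325 UMIs per cell in anti-VSIG4 libraries and 4194, 5907 and 5394 in IgG libraries. Levels are given in CPM, UMIs of a gene per 1000000 UMIs summed over the same cells of a library, and errors are SDs over libraries. Libraries differed in their share of barcodes with over 15% of UMIs in genes longer than 100000 bases. This share was 0.651, 1.47 and 9.74% in the anti-VSIG4 and 1.06, 21.9 and 48.6% in the IgG libraries, against 32 of the 1044 gated cells in all. Barcodes are running labels within each library, so the 1018 to 1827 labels that a pair of libraries shared do not show shared cells. Doublets were neither called nor removed.

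The label of Ly6c2-positive classical monocytes held for only some of the gated cells. Ly6c2, a GPI-anchored surface antigen whose transcripts are hard to separate from those of its near-identical copy Ly6c1, was at 758, 679 and 595 CPM in anti-VSIG4 1, 2 and 3, and 862, 648 and 729 CPM in IgG 1, 2 and 3. Of the gated cells, 692 (66.3%) had a Ly6c2 UMI and 352 had none, and 334 of those without had 4 or more Plac8 UMIs. Cells with a Ly6c2 UMI made up 58.2, 63.1 and 67.6% in anti-VSIG4 1, 2 and 3, and 68.4, 71.5 and 67.3% in IgG 1, 2 and 3. The C1q-high mononuclear phagocytes of the same tumours, 5248 barcodes with C1q at 0.3% or more, served as the macrophage comparison. They met the Csf1r part of the rule and its limits on T cell genes, Ncr1, Siglech, Cd79a and Cxcr2. Arg1 and Saa3 were not limited in them. Ly6c2 averaged 712 ± 93.8 CPM in the gated cells and 63.9 ± 26 CPM in these macrophages (n = 6 libraries). After every cell was thinned to 1000 UMIs, 43% of gated cells, 6.19% of macrophages and 22.9% of cells with 3 or more T cell UMIs had a Ly6c2 UMI; T cells are known to make Ly6c2 themselves.

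The other monocyte genes of the rule were also above the macrophages, except Fcgr1 and the growth factor receptor Csf1r. Plac8, a small cysteine-rich protein, averaged 1991 ± 358 CPM in the gated cells against 324 ± 89 CPM in macrophages. Ccr2, the receptor for CCL2, averaged 102 ± 31.5 against 62.7 ± 26.6 CPM. Vcan, a matrix proteoglycan, averaged 54.9 ± 12.8 against 9.95 ± 3.39 CPM, and Chil3, a chitinase-like protein, 82.1 ± 38 against 26.6 ± 28.1 CPM. Ms4a6c, a membrane protein, averaged 311 ± 50.6 against 258 ± 50.6 CPM. Ms4a4c, a marker that the rule did not use, was at 209.9, 182 and 157 CPM in anti-VSIG4 1, 2 and 3, and 207, 156 and 165 CPM in IgG 1, 2 and 3, and at 38.5 ± 10.7 CPM in macrophages. Fcgr1, the high-affinity IgG receptor, was lower at 261 ± 50.7 against 322 ± 50.5 CPM, and so was Csf1r at 165 ± 35.7 against 518 ± 60.5 CPM. No UMI of Vsig4, the antibody's target, was found in any of the 1044 gated cells, which allows a share of cells with a UMI of up to 0.287% on counting error alone. This limits cells with a UMI, not cells that express Vsig4, since the 5248 macrophages held only 30 UMIs of it.

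Transcripts of other cell types were found in many gated cells. Cut-offs on marker UMIs, set after the data were seen, marked 257 cells (24.6%) for dendritic cell transcripts (3 or more UMIs of Flt3, Zbtb46, Cd209a, Clec10a, Mgl2, Ccr7 and Fscn1). They marked 171 for 3 or more collagen or decorin UMIs, 141 for 3 or more keratin or Epcam UMIs, 141 for 10 or more neutrophil UMIs and 24 for 3 or more NK cell UMIs. Among cells without a Ly6c2 UMI, 44.3% carried dendritic and 25.9% keratin transcripts, against 14.6% and 7.23% among cells with one. Keratin-marked cells had a median of 10616 UMIs and held 31.7% of all UMIs of the gated cells, and dendritic-marked cells had a median of 9350. The 562 cells with none of these marks had a median of 3748 UMIs. The dendritic share was 25.5, 28.8 and 27.4% in anti-VSIG4 1, 2 and 3, and 22.1, 20.8 and 24.5% in IgG 1, 2 and 3. It was higher in every anti-VSIG4 library than in every IgG library, at the smallest p that 3 against 3 libraries allow (exact two-sided permutation p = 0.1). The collagen share was 12.7, 45 and 11% in anti-VSIG4 1, 2 and 3, and 18.4, 13.8 and 5.44% in IgG 1, 2 and 3, with anti-VSIG4 2 highest. The neutrophil share was 45.5, 6.31 and 8.22% in anti-VSIG4 1, 2 and 3, and 10.7, 3.85 and 4.76% in IgG 1, 2 and 3, with anti-VSIG4 1 far above the others. Keratin-marked cells made up 22.4, 8.11 and 6.85% in anti-VSIG4 1, 2 and 3, and 6.99, 22.3 and 21.8% in IgG 1, 2 and 3, and the groups overlapped.

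**Figure D1:**
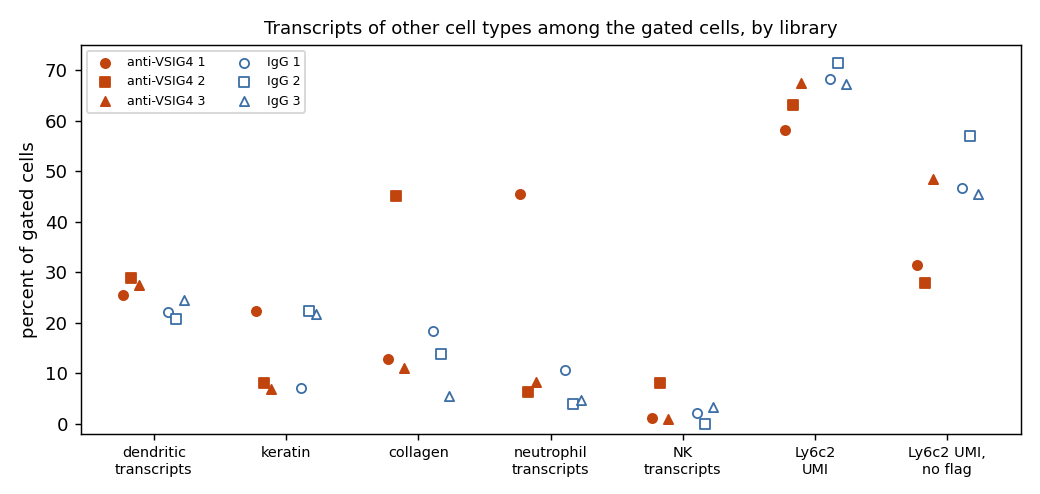
Percent of gated cells in each library (points; filled, anti-VSIG4; open, IgG; the shape gives the mouse number) that carried transcripts of other cell types above a cut-off, had a Ly6c2 UMI, or had a Ly6c2 UMI and no such mark. The dendritic share lies between 25.5% and 28.8% in anti-VSIG4 libraries and between 20.8% and 24.5% in IgG libraries.

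The 457 gated cells with a Ly6c2 UMI and no mark (43.8%, holding 26.2% of the UMIs) carried the monocyte genes most strongly. Ms4a4c averaged 336 CPM in them, against 94.4 CPM in the gated cells without a Ly6c2 UMI. Lyz2, the lysozyme of phagocytes, averaged 6031 against 977 CPM, and Cd14, the lipopolysaccharide co-receptor, 2292 against 735 CPM. Hp, the haemoglobin scavenger haptoglobin made by maturing myeloid cells, averaged 1061 CPM in unmarked Ly6c2 cells, 113 CPM in cells without Ly6c2 and 106 CPM in macrophages. The cells without Ly6c2 were instead higher in Krt8, an epithelial keratin, with 1831 against 57.6 CPM. They were also higher in Cst3, the protease inhibitor cystatin C that dendritic cells make in quantity, with 9708 against 4385 CPM, and in Ccl17, a dendritic cell chemokine, with 399.7 against 10.6 CPM. The unmarked cells were chosen for few keratin and dendritic UMIs, and the cells without Ly6c2 were not, so the Krt8 gap is largely set by that cut. In all cells with a Ly6c2 UMI, marked or not, Cst3 averaged 6029 CPM. Tumour and epithelial marker genes summed to 1593 CPM there and 4944 CPM in cells without Ly6c2. How far the cut widened the Cst3 and Ccl17 gaps was not tested. These subsets were cut after the data were seen and are given without a test.

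**Figure D2:**
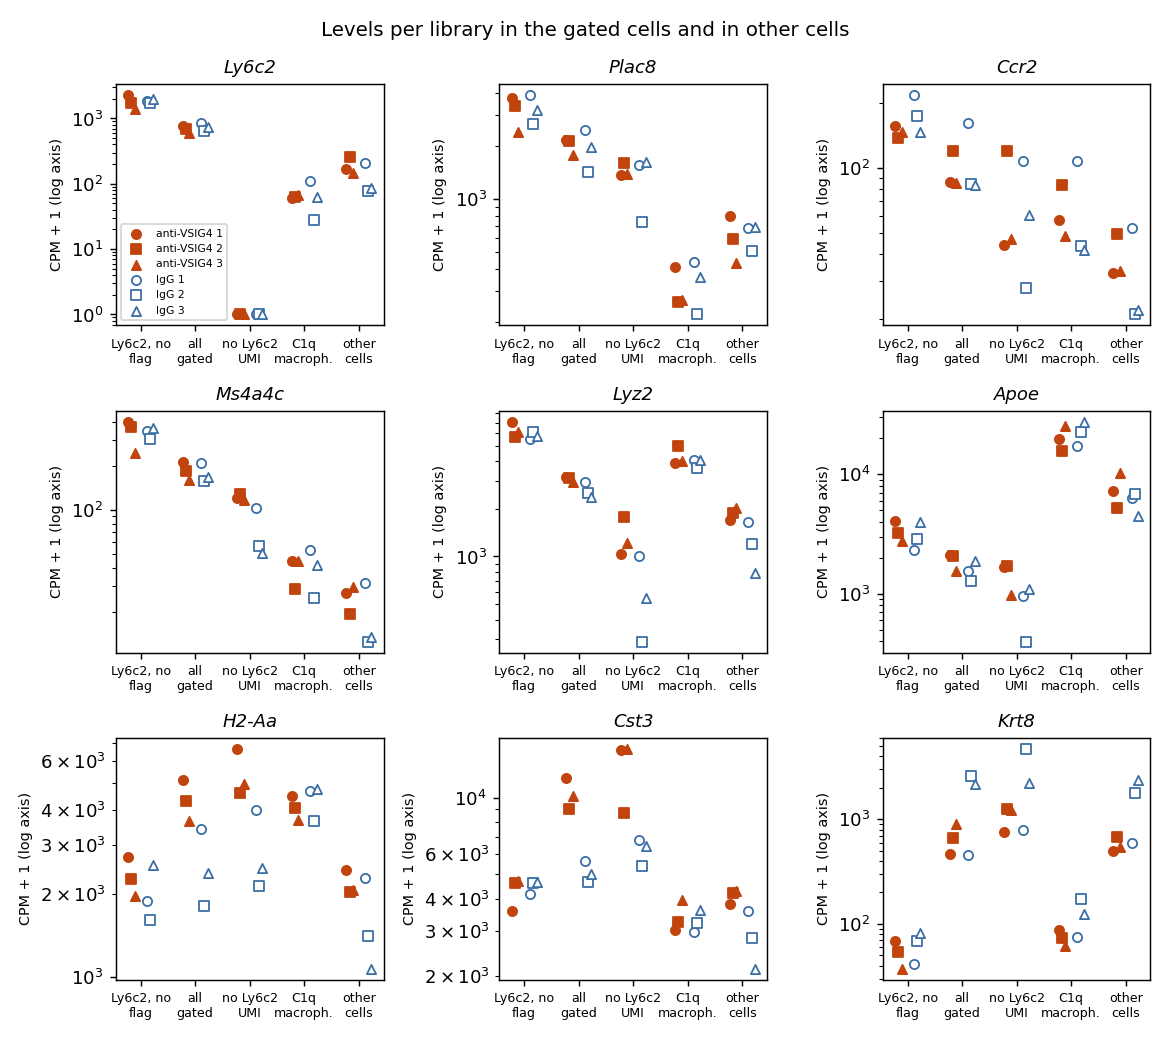
CPM + 1 on a log axis of 9 genes in each library (filled points, anti-VSIG4; open points, IgG), in unmarked cells with a Ly6c2 UMI, all gated cells, gated cells without a Ly6c2 UMI, C1q-high macrophages and all barcodes outside the gate. Lyz2 and Ms4a4c are highest in the unmarked Ly6c2 cells, Apoe in the macrophages, and Krt8 and Cst3 in gated cells without Ly6c2, where Ly6c2 is 0 by definition.

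Outside the rule, the genes with the highest ratio in the gated cells over all other barcodes (CPM + 20, means over libraries) were a mixture. Ms4a4c led at 179 against 21.2 CPM, and the interferon-inducible membrane proteins Ifitm6 and Ifitm3 were at 148 against 21.2 CPM and 3888 against 1204 CPM. Napsa, an aspartic protease, was at 390.2 against 85.1 CPM, and S100a4, a calcium-binding protein of motile cells, at 1221 against 322 CPM. Cd209a, a C-type lectin of dendritic-type cells, was at 49.3 against 3.39 CPM. It was at 2.19 CPM in unmarked Ly6c2 cells and 45.2 CPM in cells without a Ly6c2 UMI. Cd209a is a gene of the dendritic mark, so its low level in unmarked cells is largely set by that cut. Of the 20 genes highest over macrophages, keratins, Clu, Sparc and other epithelial or stromal genes made up most. When the unmarked Ly6c2 cells alone were set against macrophages, Hp, Dmkn, Ly6a2, S100a4, Ms4a4c, Ifitm6 and Sirpd led. Ly6a2 averaged 138 CPM in those cells and 2.94 CPM in macrophages, and Sirpd 126 against 6.86 CPM.

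Genes of mature macrophages were low in the gated cells. Apoe, the lipid carrier, averaged 1736 against 21338 CPM in the gated cells against macrophages. Pf4, a platelet-type chemokine of macrophages, averaged 68.1 against 1722 CPM, and the chemokine Ccl8 14.4 against 483 CPM. The lipid receptor Trem2 was at 40.5 against 267 CPM, the tetraspan protein Ms4a7 at 9.87 against 184 CPM, the lysosomal proteases Ctsd and Lgmn at 294 against 1496 CPM and 151 against 858 CPM, and the mannose receptor Mrc1 at 37.3 against 230.1 CPM. The folate receptor gene Folr2 was at 3.09 against 81.8 CPM. Since C1q, Arg1 and Saa3 limits chose the cells, these gaps carry no test.

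The 203 cells with 4 or 5 UMIs of the Ly6c2 group of genes had 129.7 CPM of Ly6c2, 588 of Plac8, 112 of Ms4a4c and 9622 of Cst3. The 307 cells with 2 or 3 such UMIs that met every other limit had 101.15, 382, 80.9 and 10025 CPM of the same genes. At the C1q limit, the 80 gated cells with C1q between 0.15% and 0.3% of UMIs had 645 CPM of Ly6c2 and 2916 of Apoe. The 53 cells between 0.3% and 0.45% had 532 and 3938 CPM. The levels of Ly6c2, Plac8 and C1q on either side of these limits are set by the rule itself.

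The share of gated cells in the tumours did not separate the treatment groups. They made up 1.73% (1.48 to 2.01) of all barcodes in anti-VSIG4 1, 1.7% (1.4 to 2.05) in anti-VSIG4 2 and 3.22% (2.81 to 3.67) in anti-VSIG4 3 (95% exact Clopper-Pearson intervals, which cover counting error only). The IgG shares were 3.79% (3.36 to 4.26) in IgG 1, 1.58% (1.32 to 1.88) in IgG 2 and 1.54% (1.3 to 1.8) in IgG 3. The highest library was an IgG one and the second highest an anti-VSIG4 one, and the groups overlapped. The means were 2.22% ± 0.869 with anti-VSIG4 and 2.3% ± 1.29 with IgG (SD, n = 3 each; exact two-sided permutation p = 1). Mononuclear phagocytes were the barcodes that met the Csf1r part and the limits on T cell genes, Ncr1, Siglech, Cd79a and Cxcr2. Among them, the shares were 13, 8.4 and 14.9% in anti-VSIG4 1, 2 and 3 and 16.8, 8.98 and 12.2% in IgG 1, 2 and 3. These means were 12.1% ± 3.34 with anti-VSIG4 and 12.7% ± 3.94 with IgG (SD, n = 3 each; exact permutation p = 0.9). The direction turned with the libraries used. Among the 3 libraries with few long-gene barcodes, the share of all barcodes differed by -2.08 percentage points (anti-VSIG4 minus IgG), and among the other 3 by 1.66 points, with no test at this size.

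**Figure D3:**
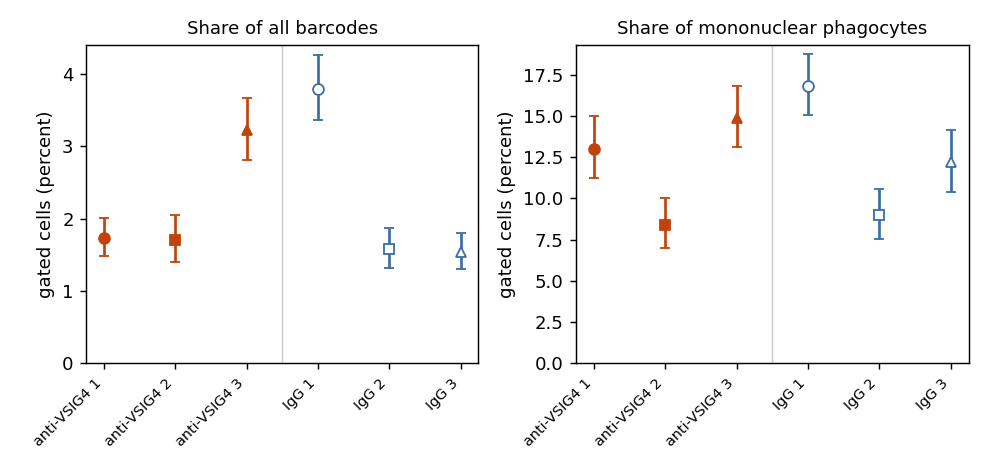
Gated cells as a percent of all barcodes (left) and of mononuclear phagocytes (right) in each library, with 95% exact binomial intervals that cover counting error only. The spread within each treatment group, 1.7 to 3.22% with anti-VSIG4 and 1.54 to 3.79% with IgG on the left, is wider than the gap between their means.

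Among themselves, the gated cells differed in genes of known monocyte states, read as the share of cells with a UMI after thinning each cell to 1000 UMIs. Il1b, the inflammatory cytokine interleukin-1 beta, was found in 87.9% of gated cells (98.2% before thinning). The share in T cells, which should lack it, was 50.5% at a median of 3715 UMIs per cell, against a median of 4895 in the gated cells. The antigen-presenting gene H2-Aa was found in 65.3% of gated cells (86.7% before thinning) and 25.8% of T cells. Thbs1, a matrix glycoprotein, was found in 53.3% (82.1% before thinning) against 15.4% of T cells, and the coagulation factor F10 in 14.7% (37.5% before thinning) against 2.14%. Hp was found in 31.8% (56.3% before thinning) against 3.98% of T cells and 9.53% of macrophages. Of genes known from non-classical monocytes, Nr4a1, a nuclear receptor, was found in 32.3% (73.6% before thinning) against 23.6% of T cells. Ace, a peptidase of patrolling cells, was found in 1.34% and Ear2, an eosinophil-type ribonuclease, in 2.01% (4.89% and 7.09% before thinning), against 0.265% and 0.265% of T cells. Mki67, a marker of dividing cells, was found in 0.192% (5.36% before thinning), below the 5.7% of T cells. After the same thinning, the macrophage shares were 90.1% for Il1b, 82.8% for H2-Aa, 61.5% for Thbs1, 13.7% for F10 and 34.3% for Nr4a1. They were 0.229% for Ace, 1.22% for Ear2 and 1.66% for Mki67.

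With 3 libraries a group, the exact permutation test could not pass the threshold for any of the 20 state genes, before or after adjustment (Benjamini-Hochberg p = 1 for all), so the shares are given as values. Only F10 reached the smallest exact permutation p of 0.1, with 13.3, 14.4 and 13.2% in anti-VSIG4 and 16.2, 15.4 and 15% in IgG libraries. Without thinning the F10 difference turned, to 1.33 percentage points against -1.85 with thinning (anti-VSIG4 minus IgG; exact permutation p = 0.8). Cd209a was found in 3.03, 2.7 and 4.10959% in anti-VSIG4 and 4.41, 3.08 and 4.08% in IgG libraries (exact p = 0.3). H2-Aa was found in 78.2, 57.7 and 69.9% in anti-VSIG4 and 70.6, 51.5 and 52.4% in IgG libraries (exact p = 0.3), and Il1b in 95.8, 86.5 and 90.9% in anti-VSIG4 and 92.6, 80 and 74.1% in IgG libraries (exact p = 0.3). For both genes the highest library was anti-VSIG4 1 and the groups overlapped.

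Across libraries, the most variable genes at 50 CPM or more were mostly known from other cells. The 20 with the largest SD of log2 CPM were led by Cryab, a small heat shock protein, Mucl3 and Cldn7, epithelial genes, and Mgp, a matrix protein, and included Epcam, Gzma and Col1a2. Cryab was at 0, 1.58 and 5.65 CPM in anti-VSIG4 and 19.1, 361 and 1.6 CPM in IgG libraries, so that IgG 2 carried nearly all of it. Epcam, an epithelial adhesion molecule, was at 14.8, 26.9 and 62.1 CPM in anti-VSIG4 and 6.59, 25.3 and 232 CPM in IgG libraries. Gzma, a granzyme of NK and T cells, was at 23.8, 225 and 198 CPM in anti-VSIG4 and 69.9, 6.52 and 85.8 CPM in IgG libraries. Col1a2, a fibrillar collagen, was at 35.6, 114 and 214 CPM in anti-VSIG4 and 368, 524 and 22.4 CPM in IgG libraries. The 34 listed classical monocyte genes outside the rule summed to 22709.9, 22713 and 22882 CPM in anti-VSIG4 and 23781, 23903 and 23039.8 CPM in IgG libraries. All 3 anti-VSIG4 sums were below all 3 IgG sums, although 26 of the 33 tested genes had a higher level with anti-VSIG4. In the unmarked Ly6c2 cells they summed to 35771, 33046 and 32924 CPM in anti-VSIG4 and 33358, 33769.6 and 32438 CPM in IgG libraries, and the groups overlapped.

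The treatment comparison asked which transcripts the gated cells carried at other levels in mice given the VSIG4 antibody than in mice given IgG. In edgeR's quasi-likelihood test on summed UMIs, 0 of 8021 genes tested passed a false discovery rate of 0.05 (0%). At an unadjusted p under 0.05 stood 573 genes (7.14%), 222 of them higher and 351 lower with anti-VSIG4. DESeq2 called 22 of 7412 genes (0.297%) and limma-voom 0 (0%). The groups did not overlap for 913 genes (11.4%), and the median log2 change over all genes was -0.01. A change in the RNA of a cell and a change in which cells the gate held cannot be told apart in these sums. Values in cells with and without marks of other types are given below for some genes.

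On the higher side, Cst3 came nearest to the edgeR threshold. Cst3, encoding cystatin C, was at 11925, 8982 and 10125 CPM in anti-VSIG4 and 5616, 4659.9 and 5009 CPM in IgG libraries (log2 change 1.10, SE 0.16, edgeR adjusted p = 0.0578). All 3 anti-VSIG4 libraries lay above all 3 IgG libraries. The groups did not overlap for any of the 20 genes nearest the threshold, 10 on each side. Plet1, a surface glycoprotein of epithelial and dendritic-type cells, was at 262, 181 and 125 CPM in anti-VSIG4 and 78.5, 39.1 and 34.5 CPM in IgG libraries (log2 change 1.96, SE 0.36, edgeR adjusted p = 0.26). Ifitm1, an interferon-inducible membrane protein, was at 2267, 1314 and 1160.1 CPM in anti-VSIG4 and 919, 605 and 796 CPM in IgG libraries (log2 change 1.11, SE 0.25, edgeR adjusted p = 0.287). The anti-apoptotic copies Bcl2a1a and Bcl2a1b, whose reads may be split between near-identical genes, had log2 changes of 1.27 and 1.22 (edgeR adjusted p = 0.26 for both). Mmp12, the macrophage elastase, had a log2 change of 1.52, and Klrb1b, a C-type lectin-like receptor, of 1.11 (edgeR adjusted p = 0.287 for both). H2-DMb2, H2-Eb1 and H2-Oa of MHC class II completed the 10. DESeq2 called Cst3, Plet1, Bcl2a1a, Bcl2a1b, Ifitm1, H2-DMb2 and H2-Oa of these, with adjusted p = 1.12e-04 for Cst3 and 4.65e-04 for Plet1.

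On the lower side, Fbln2 came nearest, and DESeq2 called Fbln2, Cxcl1 and Cldn18 of the 10. Fbln2, a matrix fibulin, was at 28.7, 42.8 and 45.2 CPM in anti-VSIG4 and 113, 193 and 224 CPM in IgG libraries (log2 change -2.09, SE 0.31, edgeR adjusted p = 0.0578). Cxcl1, a neutrophil-attracting chemokine, was at 49.5, 79.2 and 72.9 CPM in anti-VSIG4 and 139.8, 228 and 337 CPM in IgG libraries (log2 change -1.72, SE 0.32, edgeR adjusted p = 0.26). Cldn18, a tight junction protein of gastric-type epithelium, was at 11.9, 23.8 and 15.4 CPM in anti-VSIG4 and 40.9, 79.1 and 131 CPM in IgG libraries (log2 change -2.25, SE 0.43, edgeR adjusted p = 0.281). Tm4sf4, Wwtr1, Vamp5, Itga3, Cavin3, Bcr and Smpd3 followed, with log2 changes between -2.10 and -1.23 and an edgeR adjusted p of 0.287. In the gated cells without a Ly6c2 UMI, Fbln2 was at 31.9, 38.4 and 22.2 CPM in anti-VSIG4 and 208, 327 and 504 CPM in IgG libraries. In the unmarked Ly6c2 cells it was at 18.6, 31.4 and 3.45 CPM in anti-VSIG4 and 9.03, 18.3 and 6.17 CPM in IgG libraries, and the groups overlapped. Tumour and epithelial marker genes summed to 1373, 1897 and 2701 CPM in anti-VSIG4 and 1252, 6995 and 5052 CPM in IgG libraries. In the unmarked Ly6c2 cells they summed to 217, 147 and 121 CPM in anti-VSIG4 and 156, 229.7 and 225 CPM in IgG libraries. The unmarked cells were chosen for few keratin and Epcam UMIs, so their low sum is largely set by that cut.

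The Cst3 difference likewise was not seen in the unmarked Ly6c2 cells. In the unmarked Ly6c2 cells it was at 3596, 4619 and 4684 CPM in anti-VSIG4 and 4167, 4600.1 and 4642 CPM in IgG libraries, and the groups overlapped, against 19796, 12499 and 17502 CPM in anti-VSIG4 and 7453, 6088 and 7859 CPM in IgG libraries in the dendritic-marked cells. In the 692 cells with a Ly6c2 UMI, marked or not, it was at 8069.5, 9197 and 6295 CPM in anti-VSIG4 and 4707, 3898 and 4007 CPM in IgG libraries. Plet1 was at 6.21, 0 and 8.64 CPM in anti-VSIG4 and 11.3, 5.22 and 15.4 CPM in IgG libraries in the unmarked Ly6c2 cells. Of the genes named as nearest the threshold, Bcl2a1b alone lay apart in the unmarked Ly6c2 cells. It was at 267, 293 and 187 CPM in anti-VSIG4 and 181, 96.6 and 58.6 CPM in IgG libraries there. Fitting the cells with a Ly6c2 UMI, the unmarked Ly6c2 cells, or the cells with fewer than 3 keratin UMIs called 0 genes in edgeR each, of 5793, 3739 and 5432 tested. At an unadjusted p under 0.05 stood 216 (3.73%), 100 (2.67%) and 243 (4.47%) of them, against 7.14% in all gated cells.

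MHC class II genes, which present peptides to CD4 T cells, stood on 1 side together with other genes of their list. The list of 15 also held Ctss, Ifi30, Lgmn and Marchf1, which do not encode class II chains, and the regulator Ciita. All 14 tested of 15 listed were higher with anti-VSIG4, with a median log2 change of 0.61 against -0.01 over all genes; 0 passed in edgeR. An unadjusted p under 0.05 was reached by 7 of the 14, against 7.14% of all genes, and the groups did not overlap for 7, against 11.4% of all genes. DESeq2 called H2-DMb2 (adjusted p = 0.035) and H2-Oa (adjusted p = 0.0483). H2-Aa, the alpha chain of I-A, was at 5118, 4305 and 3660.4 CPM in anti-VSIG4 and 3406, 1801 and 2377 CPM in IgG libraries (log2 change 0.87, SE 0.21, edgeR adjusted p = 0.287). H2-Eb1, the beta chain of I-E, was at 4981, 3789 and 4162 CPM in anti-VSIG4 and 3185, 1786 and 2509 CPM in IgG libraries (log2 change 0.88, SE 0.20, edgeR adjusted p = 0.287). Cd74, the invariant chain, was at 12290.5, 11469.9 and 15230.2 CPM in anti-VSIG4 and 10447, 7639.9 and 8307 CPM in IgG libraries (log2 change 0.65, SE 0.17, edgeR adjusted p = 0.372). Both groups lay apart for these genes, with IgG 1 highest among the IgG libraries. The peptide-exchange genes differed more in log2 terms at lower levels. H2-DMb2, a close copy of H2-DMb1, was at 129.7, 147 and 106 CPM in anti-VSIG4 and 79.1, 39.9 and 46.5 CPM in IgG libraries (log2 change 1.28, SE 0.27, edgeR adjusted p = 0.287). H2-Oa, which restrains H2-DM, was at 144, 77.6 and 58 CPM in anti-VSIG4 and 44.2, 24.5 and 33.7 CPM in IgG libraries (log2 change 1.51, SE 0.34, edgeR adjusted p = 0.287). Ciita, the master regulator of the class, was at 29.7, 61.8 and 76.5 CPM in anti-VSIG4 and 71.9, 27.7 and 52.9 CPM in IgG libraries, and the groups overlapped (log2 change 0.25, SE 0.39, edgeR adjusted p = 0.948).

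Class II genes share a promoter module whose Y box holds a CCAAT sequence bound by the factor NF-Y, so the promoters of the 4 members nearest the threshold that RefSeq lists are shown. Each is the 150 bases before the transcription start in GRCm38.p6, 5′ to 3′ on the gene's strand, with capitals on GATTGG, the Y box core, or its reverse complement CCAATC. They lie at chr17:34287824-34287973 (minus strand) for H2-Aa, chr17:34305717-34305866 (plus strand) for H2-Eb1, chr17:34145099-34145248 (plus strand) for H2-DMb2 and chr17:34092229-34092378 (plus strand) for H2-Oa.
H2-Aa promoter: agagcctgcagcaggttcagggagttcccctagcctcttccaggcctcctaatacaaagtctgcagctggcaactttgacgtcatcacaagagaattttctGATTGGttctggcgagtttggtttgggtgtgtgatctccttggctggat
H2-Eb1 promoter: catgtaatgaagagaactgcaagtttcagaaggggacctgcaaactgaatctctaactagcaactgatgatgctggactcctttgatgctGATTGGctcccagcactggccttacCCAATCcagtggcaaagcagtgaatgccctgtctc
H2-DMb2 promoter: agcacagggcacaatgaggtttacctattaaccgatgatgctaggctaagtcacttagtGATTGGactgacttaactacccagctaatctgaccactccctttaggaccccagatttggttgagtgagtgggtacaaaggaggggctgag
H2-Oa promoter: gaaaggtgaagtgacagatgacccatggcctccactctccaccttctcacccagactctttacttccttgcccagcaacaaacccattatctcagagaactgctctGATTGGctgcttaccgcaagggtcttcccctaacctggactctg
GATTGG begins 49 bases before the start in H2-Aa, 60 in H2-Eb1, 91 in H2-DMb2 and 44 in H2-Oa. On either strand it was present in 7 of the 12 listed genes that were searched, including H2-Eb2, H2-DMb1 and H2-Ob. Only the most upstream listed start of each gene was searched. At that start, H2-DMa, Ctss, Ifi30, Lgmn and Marchf1 held no match, and Cd74, H2-Ab1 and Ciita were not searched. H2-DMa and Lgmn have 2 listed starts and Marchf1 has 3, so a match at their other starts was not looked for. Of all 32851 RefSeq promoter windows of this length, taken over every listed start, 10.9% held it. A match describes the sequence and is not evidence of binding in these cells.

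The class II difference was not seen in the unmarked Ly6c2 cells. The 15 listed genes summed to 18351, 17618 and 21979 CPM in anti-VSIG4 and 16963, 18236 and 25692 CPM in IgG libraries there, and the groups overlapped. In the dendritic-marked cells they summed to 53299.6, 43787 and 56481 CPM in anti-VSIG4 and 38554, 22312 and 25942 CPM in IgG libraries, with no overlap. In all cells with a Ly6c2 UMI they summed to 23735, 29673 and 28553 CPM in anti-VSIG4 and 23580.2, 15513 and 22075 CPM in IgG libraries, also with no overlap. The median log2 change over the list was 0.61 in all gated cells, 0.29 in cells with a Ly6c2 UMI and -0.10 in the unmarked Ly6c2 cells. The whole list of conventional dendritic cell markers, with 0 of its 13 genes at 0 in the gated cells, summed to 975, 819 and 763 CPM in anti-VSIG4 and 719, 488 and 492 CPM in IgG libraries in the gated cells and 74.5, 136 and 74.3 CPM in anti-VSIG4 and 133, 36.5 and 77.1 CPM in IgG libraries in the unmarked Ly6c2 cells. The groups lay apart for this sum in the gated cells and overlapped in the unmarked ones. The unmarked cells were chosen for few UMIs of dendritic genes, so their low sum is largely set by that cut. The part of dendritic cells in the class II result was not tested. In the macrophages the class II sum was 34299, 31640.4 and 39908 CPM in anti-VSIG4 and 38388, 38123 and 47195 CPM in IgG libraries, and the groups overlapped.

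**Figure D4:**
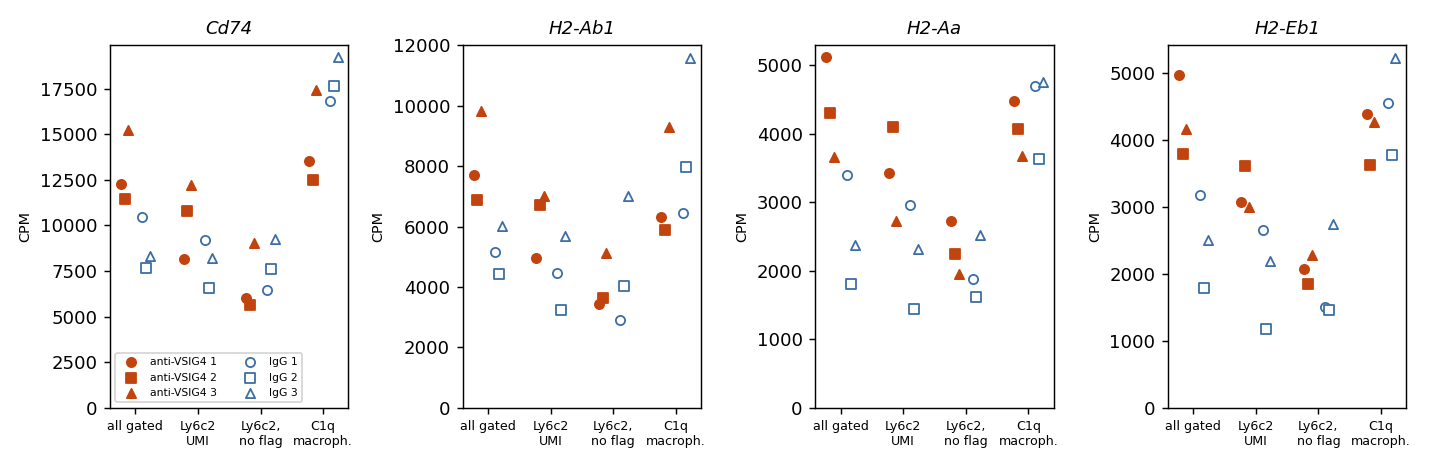
CPM of 4 MHC class II genes in each library (filled points, anti-VSIG4; open points, IgG), in all gated cells, gated cells with a Ly6c2 UMI, unmarked cells with a Ly6c2 UMI, and C1q-high macrophages. In all gated cells the groups lie apart for each of the 4 genes, and in cells with a Ly6c2 UMI for H2-Eb1 alone. In the unmarked Ly6c2 cells and the macrophages the groups overlap for each.

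Among genes by which monocytes enter tissue, 11 chemoattractant receptors were tested: 9 of 11 were higher and 2 lower (median log2 change 0.45). Ccr2 was at 85.1, 119 and 83.7 CPM in anti-VSIG4 1, 2 and 3, and 159.6, 83.1 and 82.6 CPM in IgG 1, 2 and 3, with IgG 1 highest. Ccr1, a receptor for inflammatory CC chemokines, averaged 128 ± 48.3 CPM over the 6 libraries. Cxcr4, a retention receptor, was at 143, 95 and 78.1 CPM in anti-VSIG4 and 102, 42.4 and 58.5 CPM in IgG libraries (log2 change 0.71, SE 0.32, edgeR adjusted p = 0.686), and C3ar1, the C3a receptor, at 43.6, 50.7 and 33.9 CPM in anti-VSIG4 and 33, 30.2 and 19.2 CPM in IgG libraries (log2 change 0.68, SE 0.31, edgeR adjusted p = 0.682). Of 20 adhesion genes, 9 were higher and 11 lower (median log2 change -0.17). Cd44 and Selplg, which bind hyaluronan and selectins, ranged over 294 to 389.7 and 149 to 266 CPM. Itgax, the CD11c integrin of dendritic cells and macrophages, was at 61.4, 108 and 61.1 CPM in anti-VSIG4 and 56, 18.7 and 38.5 CPM in IgG libraries (log2 change 1.08, SE 0.36, edgeR adjusted p = 0.496), and at 6.21, 20.9 and 13.8 CPM in anti-VSIG4 and 20.3, 0 and 27.8 CPM in IgG libraries in the unmarked Ly6c2 cells.

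Sensors and cytokines were mostly on the higher side without passing. Of 23 pattern recognition genes, 20 were higher and 3 lower (median log2 change 0.36), and 6 had an unadjusted p under 0.05, against 7.14% of all genes. Cd14 was at 1686, 1135 and 1436 CPM in anti-VSIG4 and 1172, 1092 and 945 CPM in IgG libraries (log2 change 0.48, SE 0.21, edgeR adjusted p = 0.668), Clec4n, the Dectin-2 receptor for fungal mannans, at 292, 249 and 171 CPM in anti-VSIG4 and 167, 81.5 and 78.5 CPM in IgG libraries (log2 change 1.19, SE 0.31, edgeR adjusted p = 0.372), and Tlr4, the lipopolysaccharide receptor, at 63.4, 38 and 34.4 CPM in anti-VSIG4 and 32.3, 19.6 and 18.4 CPM in IgG libraries (log2 change 1.01, SE 0.33, edgeR adjusted p = 0.474). Of 25 inflammatory cytokine genes, 19 were higher and 6 lower (median log2 change 0.30). The groups did not overlap for 2 of the 25, against 11.4% of all genes. Il1b was at 7509.9, 5528 and 7225 CPM in anti-VSIG4 and 5339.7, 4298 and 3633 CPM in IgG libraries (log2 change 0.69, SE 0.20, edgeR adjusted p = 0.421), and the groups did not overlap. Unlike Cst3, Il1b also lay apart in the unmarked Ly6c2 cells, at 10005, 7699 and 7736 CPM in anti-VSIG4 and 6901, 5482 and 5963 CPM in IgG libraries, and in the macrophages, at 6839, 5595 and 5909 CPM in anti-VSIG4 and 4934, 4493 and 3655 CPM in IgG libraries. In unmarked Ly6c2 cells the cytokine list summed to 17668, 14444 and 14224 CPM in anti-VSIG4 and 13125, 11489.8 and 11814 CPM in IgG libraries. These sums did not overlap, but Il1b is itself part of them, at 10005 of the 17668 CPM in anti-VSIG4 1. Il1r2, a decoy receptor of interleukin-1 that neutrophils carry in quantity, was at 1501, 1131 and 883 CPM in anti-VSIG4 and 938, 443 and 484 CPM in IgG libraries (log2 change 0.99, SE 0.29, edgeR adjusted p = 0.426). Of 19 chemokines, 14 were higher and 5 lower (median log2 change 0.57), with Cxcl2 at 4067, 2041 and 3905 CPM in anti-VSIG4 and 2330.3, 2486 and 1736 CPM in IgG libraries (log2 change 0.68, SE 0.28, edgeR adjusted p = 0.668). Neutrophil marker genes summed to 6054, 2646 and 2356 CPM in anti-VSIG4 and 3256, 1239.8 and 1149 CPM in IgG libraries in the gated cells. The same sum was 4838, 1864 and 1604 CPM in anti-VSIG4 and 2492, 1209 and 743 CPM in IgG libraries in the unmarked Ly6c2 cells and 5360.2, 2403 and 2034 CPM in anti-VSIG4 and 2799, 1507 and 939.6 CPM in IgG libraries in the macrophages. It was highest in anti-VSIG4 1 in all 3, and their part in these values was not tested.

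Fc receptors, type I interferon genes and transcription factors had list medians near that of all genes. Of 11 Fc gamma receptor genes, 7 were higher and 4 lower (median log2 change 0.13). Fcer1g, their shared signalling chain, ranged over 1479 to 2206 CPM, and Fcgr3, a low-affinity activating receptor, was at 331, 287 and 281 CPM in anti-VSIG4 and 239, 204 and 201 CPM in IgG libraries (log2 change 0.56, SE 0.21, edgeR adjusted p = 0.619). Of 47 type I interferon response genes, 24 were higher and 23 lower (median log2 change 0.00). Ifi27l2a and Isg15, a ubiquitin-like modifier, averaged 2417 ± 299.69 and 1935 ± 678 CPM, and Rsad2, the antiviral enzyme viperin, was at 54.4, 26.9 and 71.9 CPM in anti-VSIG4 and 111, 135 and 88.2 CPM in IgG libraries (log2 change -1.00044, SE 0.34, edgeR adjusted p = 0.542). The interferon list summed to 14103, 13501 and 14988 CPM in anti-VSIG4 and 17187, 13879 and 15491 CPM in IgG libraries in the unmarked Ly6c2 cells and 6643, 4878 and 6964 CPM in anti-VSIG4 and 7862, 7108 and 6674 CPM in IgG libraries in macrophages. Of 28 interferon gamma response genes, 20 were higher and 8 lower (median log2 change 0.23), with Cxcl9, a T cell-attracting chemokine, at 68.1 to 340.5 CPM. Of 35 transcription factor genes, 18 were higher and 17 lower (median log2 change 0.03). Cebpb, a driver of monocyte survival, averaged 2061 ± 520.4 CPM, and Irf8, a lineage factor of monocytes and dendritic cells, was at 290.1, 236 and 403 CPM in anti-VSIG4 and 272, 202 and 161 CPM in IgG libraries (log2 change 0.63, SE 0.28, edgeR adjusted p = 0.673).

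All 10 tested of 15 acinar genes, digestive enzymes of the exocrine pancreas, were lower with anti-VSIG4, with a sum of 182, 228 and 63.7 CPM in anti-VSIG4 and 602, 299.95 and 295 CPM in IgG libraries. The macrophages of the same libraries summed to 258, 284 and 57.5 CPM in anti-VSIG4 and 149, 361 and 224 CPM in IgG libraries, and their groups overlapped. In the unmarked Ly6c2 cells the acinar sum was 224, 419 and 117 CPM in anti-VSIG4 and 1609.6, 399 and 515 CPM in IgG libraries, with a median log2 change of -2.47 and an overlap of the groups. Of 18 hypoxia genes, 4 were higher and 14 lower (median log2 change -0.43), but the median was 0.17 in cells with a Ly6c2 UMI. All 11 tested mitochondrially encoded genes were higher (median log2 change 0.34), with sums of 7089, 4847 and 2652 CPM in anti-VSIG4 and 5246, 3448 and 3272 CPM in IgG libraries and an overlap of the groups. Of 25 stress and dissociation genes, 7 were higher and 18 lower (median log2 change -0.22). Of 35 macrophage maturation genes, 24 were higher and 11 lower (median log2 change 0.17). No gene of any list passed in edgeR. DESeq2 called 4 of the listed genes, H2-DMb2 and H2-Oa on the higher side and Cxcl1 (adjusted p = 0.00163) and the hypoxia gene P4ha2 (adjusted p = 0.00979) on the lower.

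Gated cells and C1q-high macrophages come from the same mice, so their treatment changes were compared in 1 edgeR fit with the mouse as a block. The class-by-treatment term passed a false discovery rate of 0.05 for 15 of 12195 genes (0.123%), 10 with a higher and 5 with a lower change in the gated cells. In the macrophages alone, edgeR called 0 of 11259 genes (0%), with 482 at an unadjusted p under 0.05. Of the 10, 4 were MHC class II genes. H2-Eb1 was at 4389.7, 3624 and 4271 CPM in anti-VSIG4 and 4556, 3772 and 5224 CPM in IgG libraries in macrophages, beside the gated-cell values above (difference 1.06, SE 0.18, edgeR adjusted p = 0.0114). H2-Aa was at 4483, 4070.2 and 3682 CPM in anti-VSIG4 and 4692, 3638 and 4759.9 CPM in IgG libraries in macrophages (difference 1.02, SE 0.17, edgeR adjusted p = 0.0114). For Cd74 the difference was 0.99 (edgeR adjusted p = 0.0112), with 13513, 12459 and 17446 CPM in anti-VSIG4 and 16839, 17646 and 19227 CPM in IgG libraries in macrophages. H2-Ab1, the beta chain of I-A, was at 7696, 6878 and 9821 CPM in anti-VSIG4 and 5174, 4441 and 6025 CPM in IgG libraries in gated cells and 6315, 5904 and 9296 CPM in anti-VSIG4 and 6459, 7983 and 11594 CPM in IgG libraries in macrophages (difference 1.00184, SE 0.18, edgeR adjusted p = 0.0173). In the gated cells the anti-VSIG4 libraries lay higher, and in macrophages the groups overlapped for H2-Aa, H2-Ab1, H2-Eb1 and Cd74.

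The remaining genes on the higher side included regulators of signalling and lipid transfer. Rgs1, a regulator of G protein signalling, was at 296, 91.8 and 251 CPM in anti-VSIG4 and 79.8, 83.1 and 131 CPM in IgG libraries in gated cells and 454, 194 and 497 CPM in anti-VSIG4 and 274, 431 and 481 CPM in IgG libraries in macrophages (difference 1.23, SE 0.20, edgeR adjusted p = 0.0109), and its groups overlapped in both classes. Pltp, the phospholipid transfer protein, was at 133, 209 and 82.2 CPM in anti-VSIG4 and 133, 66.8 and 51.3 CPM in IgG libraries in gated cells and 167, 215 and 114 CPM in anti-VSIG4 and 342, 290.3 and 268 CPM in IgG libraries in macrophages (difference 1.73, SE 0.26, edgeR adjusted p = 0.0114). All 3 anti-VSIG4 libraries were lower in macrophages, and the groups overlapped in gated cells. Ckb, a creatine kinase, was at 198, 215 and 222 CPM in anti-VSIG4 and 169, 110.0 and 122 CPM in IgG libraries in gated cells and 92.5, 95.7 and 61.8 CPM in anti-VSIG4 and 136, 107 and 88.4 CPM in IgG libraries in macrophages (difference 1.21, SE 0.21, edgeR adjusted p = 0.0112). Itgb7, an integrin chain, was at 164, 209 and 220.3 CPM in anti-VSIG4 and 196, 143 and 178 CPM in IgG libraries in gated cells and 43.9, 45.5 and 48.1 CPM in anti-VSIG4 and 65.4, 92.3 and 93.9 CPM in IgG libraries in macrophages (difference 1.16, SE 0.23, edgeR adjusted p = 0.0363). The groups overlapped in the gated cells and lay apart in the macrophages, with anti-VSIG4 lower. Bcl2a1b and Tff1 completed the 10. Tff1, a trefoil peptide of gastric epithelium, averaged under 20 CPM over the libraries of each class and is named beyond the rule, with 22.8, 31.7 and 21.1 CPM in anti-VSIG4 and 3.3, 16.3 and 9.62 CPM in IgG libraries in gated cells.

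On the lower side all 5 genes are better known outside monocytes. Sox9, a duct and progenitor transcription factor, was at 6.93, 7.92 and 6.16 CPM in anti-VSIG4 and 13.8, 108 and 68.1 CPM in IgG libraries in gated cells and 4.53, 3.77 and 5.01 CPM in anti-VSIG4 and 1.64, 6.65 and 4.66 CPM in IgG libraries in macrophages (difference -3.10, SE 0.45, edgeR adjusted p = 0.00336). Tm4sf1, a tumour and endothelial surface protein, was at 36.6, 99.8 and 32.9 CPM in anti-VSIG4 and 155, 249 and 159 CPM in IgG libraries in gated cells and 15, 18.2 and 10.6 CPM in anti-VSIG4 and 14, 13.8 and 15.4 CPM in IgG libraries in macrophages (difference -1.78, SE 0.30, edgeR adjusted p = 0.0117). Ncam1, Bcr and Cela1, a pancreatic elastase, followed with differences of -2.83, -1.86 and -2.63. In the unmarked Ly6c2 cells Sox9 was at 0, 0 and 5.18 CPM in anti-VSIG4 and 4.52, 2.61 and 3.08 CPM in IgG libraries. The groups overlapped there for Sox9, Tm4sf1, Ncam1 and Bcr. Cela1 lay apart in these cells, at 0, 0 and 5.18 CPM in anti-VSIG4 and 40.6, 26.1 and 9.25 CPM in IgG libraries. In macrophages Cela1 averaged 25 CPM with anti-VSIG4 and 26.5 CPM with IgG. The 15 calls depended on which cells and libraries were used. With only the gated cells that had a Ly6c2 UMI, 5 genes passed, of which 2 were among the 15. Without anti-VSIG4 1 or without IgG 2, 1 gene passed in each case, and without anti-VSIG4 2 the count was 5. The gene that passed without IgG 2 was not among the 15. It was 115 without IgG 1 and 31 without IgG 3.

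**Figure D5:**
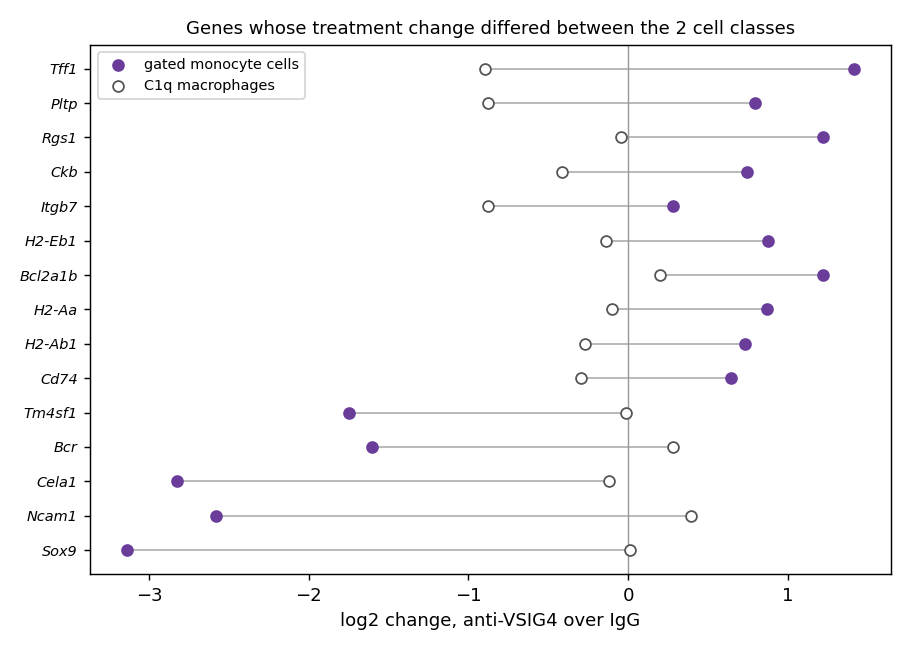
Log2 change, anti-VSIG4 over IgG, of the 15 genes whose treatment change differed between the cell classes, in gated cells (filled) and in C1q-high macrophages (open). Cd74, H2-Aa, H2-Ab1 and H2-Eb1 lie above 0 in the gated cells, at 0.65 to 0.88, and below 0 in the macrophages.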

How the data were processed

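The authors deposited 1 sparse matrix per library, whose values are UMI counts per gene and barcode, written by PISA 1.0 per the file headers. The submitters' processing notes also name STAR and Seurat 4.11, with no role. The genome build, annotation and settings behind the counts were not given in the sources used here. Libraries held 26606234 to 47221033 UMIs, every barcode held at least 1000, and genes absent from one library's list were set to 0 there. The label rule was applied to the raw counts of all 47794 barcodes. Counts were summed over cells per library and class and tested with edgeR 4.0.16 (TMM, filterByExpr, robust quasi-likelihood fit, Benjamini-Hochberg adjustment at 0.05), with DESeq2 1.42.0 and limma 3.58.1 as alternatives, in R 4.3.3. An SE is the log2 change divided by the square root of its F statistic and is approximate. Shares were compared by exact permutation tests over libraries, whose smallest p is 0.1. Cells were thinned with numpy 2.4.6. Gene spans came from GENCODE M21, which named 88.3% of the genes, holding 97.0% of the UMIs. Named genes followed a fixed rule: the gate genes, the 10 genes nearest the threshold per direction at 20 CPM or more, up to 4 by p and 4 by level per list, called interaction genes, the 20 leading genes, and the 20 most variable genes. The cells, lists, rule and tests were chosen with earlier results of these data known. The edgeR fits were also run on simulated counts with a single dispersion and the same cell mixture in every library. Such counts are simpler than those of the gated cells and do not show how the fits perform on them. Replicates are separate mice.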

Additional observations from a re-analysis of the deposited data

Results flagged for a closer look

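For 15 genes the treatment change in the gated cells differed from that in C1q-high macrophages of the same mice by a test of the difference itself (class-by-treatment term, edgeR, false discovery rate 0.05). On the log2 scale, gated cells minus macrophages, the difference was 2.26 for Tff1, 1.73 for Pltp, 1.23 for Rgs1, 1.21 for Ckb, 1.16 for Itgb7, 1.06 for H2-Eb1, 1.06 for Bcl2a1b, 1.02 for H2-Aa, 1.00184 for H2-Ab1 and 0.99 for Cd74. It was -3.10 for Sox9, -2.83 for Ncam1, -2.63 for Cela1, -1.86 for Bcr and -1.78 for Tm4sf1. Beside the class II genes, the sum of conventional dendritic cell markers was 975, 819 and 763 CPM in anti-VSIG4 and 719, 488 and 492 CPM in IgG libraries in the gated cells and 303, 531 and 406 CPM in anti-VSIG4 and 566, 357 and 243 CPM in IgG libraries in the macrophages. Beside Sox9, Tm4sf1 and Cela1, tumour and epithelial markers summed to 1373, 1897 and 2701 CPM in anti-VSIG4 and 1252, 6995 and 5052 CPM in IgG libraries and acinar markers to 182, 228 and 63.7 CPM in anti-VSIG4 and 602, 299.95 and 295 CPM in IgG libraries in the gated cells. The part of these other cells in the differences was not tested. With 3 libraries in a group, no library was tested as standing apart from its group.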

How the results depend on the processing

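The count of genes changed by treatment in the gated cells, 0 in edgeR, was 2 with library totals as scaling, 209 with no filter on low counts (19556 genes), 22 in DESeq2, 5 with library kind as a covariate and 2 with C1q under 0.1%. It was 49 in the 3 libraries with few long-gene barcodes and 159 in the 3 with many, where each has a single library in one arm, assumed to vary like the others. Leaving out 1 library gave 0 to 118 genes (118 without IgG 1). It was 0 with DESeq2-type size factors in edgeR, limma-voom, the stricter, looser and quality-filtered rules, without the cells with most UMIs, at 2000 UMIs or more, and without long-gene-rich cells. The cause of these differences was not tested. The 15 genes that differed between gated cells and macrophages became 108 with no filter, all 15 among them, 5 with cells that had a Ly6c2 UMI, and 1 to 115 when 1 library was left out (115 without IgG 1). They became 18 with DESeq2-type size factors, all 15 among them, and 19 in DESeq2, with 12 of the 15 among them. With macrophages low in Arg1 and Saa3 they became 11, and only 6 of the 15 were among these. The difference in the share of all barcodes, -0.0854 percentage points, ran from -0.587 to 0.659 and that among mononuclear phagocytes, -0.566 points, from -2.4 to 1.51 when 1 library was left out. In libraries with many long-gene barcodes they were 1.66 and 4.3 points, against -2.08 and -6.12 in those with few. Single genes turned in 3 cases: Cst3 was -0.0751 in unmarked Ly6c2 cells, and with Ly6c2 UMI cells Fbln2 was 0.14 and the Ncam1 difference 0.86. Splits by marks, Ly6c2 UMIs and library kind for shares were chosen after seeing the data.

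The labels do not say whether the replicate numbers pair the mice. Same-numbered libraries had correlations of deviations of 0.153, -0.13 and 0.108, and differently numbered ones ran from -0.303 to 0.224. So few libraries cannot decide whether mice were paired. With the replicate number as a block, 12 genes changed by treatment, and the share of all barcodes gave an exact sign-flip p of 1 and that among mononuclear phagocytes 0.75. Precision is limited by 3 mice a group and by 111 to 272 gated cells per library, so that low genes were not tested.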
